A study of Mus musculus with 8 samples.

Results

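Nuclear genes that encode the oxidative phosphorylation machinery of mitochondria were described in mouse epidermis across a 2-stage skin carcinogenesis experiment. Members were the protein-coding nuclear genes whose symbols start with Nduf, Uqcr, Atp5 or Cox4 to Cox8, together with Sdha, Sdhb, Sdhc, Sdhd and Cyc1, with at least 50 counts summed over the 8 libraries. The name rule found 95 genes among 55487, and 89 of them reached the count minimum and were tested. The 6 others were 5 isoforms known from muscle, lung or testis (Cox4i2 with 45 counts in all, Cox6a2, Cox7b2, Cox8b and Cox8c) and a second Atp5o identifier with 0 counts. The member nearest the minimum was Cox7a1, with 85 counts.

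The libraries came from dorsal skin epidermis of wild-type FVB mice aged 7 to 8 weeks, 2 libraries in each of 4 groups. Mice of the DMBA group were painted once with 7,12-dimethylbenz[a]anthracene (DMBA, 1 mg/ml, 100 µl), a carcinogen that starts skin tumours, and their skin was taken on day 10. The DMBA/TPA group received DMBA at 1 mg/ml and then the phorbol ester TPA (0.1 mg/ml) 2 times a week, a promoter of keratinocyte growth, and was taken on day 52. The Control DMBA and Control DMBA TPA groups received acetone, in which both agents were dissolved, and the labels give no harvest day for them. The stated age is the same for skin taken on day 10 and on day 52, so age at harvest is uncertain and may differ between the regimens. No group received TPA without DMBA, so the DMBA/TPA group differs from its control by both agents. The labels do not say that the 2 libraries of a group came from separate animals, so the p-values rest on the spread between libraries, part or all of which may be technical.

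Oxidative phosphorylation passes electrons from NADH (complex I) and succinate (complex II) through ubiquinone to complex III, then through cytochrome c to complex IV, which reduces oxygen. Complexes I, III and IV pump protons, and complex V, the ATP synthase, uses the gradient to make ATP. Most subunits are encoded in the nucleus and imported, while a small set is encoded in mitochondrial DNA, so that all complexes but complex II need both genomes. In epidermis the basal layer divides and the layers above it differentiate and finally lose their mitochondria.

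Promoters are shown because many members moved together and because nuclear genes of this pathway are textbook targets of NRF1, GABPA (an ETS factor), YY1 and the oestrogen-related receptors (ERR). RefSeq promoters on GRCm38.p6 were found for 72 of the 89 members, each covering 250 bases before and 50 after the annotated start. Searched on both strands were, for NRF1, GCGC followed by any base and TGCGC, and CCGGAAG for ETS factors, AAGATGGCG for YY1 and CAAGGTCA for ERR. The stretches below run from 170 bases before to 30 bases after the start, 5′ to 3′ on the gene's strand, with matches in capitals. They were picked without a rule and do not stand for the members as a set. Cox6a1 (chr5:115348929-115349128, minus strand) had the largest change in DMBA/TPA epidermis. Sdhd (chr9:50603820-50604019, minus strand) and Ndufs6 (chr13:73328453-73328652, minus strand) are 2 of the 19 members called higher against both acetone groups. Among these 19 an NRF1 match was found only for Cox6a1, Sdhd and Ndufs6, while Cox6b1, Cox8a, Uqcr11 and Uqcrh held the ETS motif without one. Ndufa4 (chr6:11907421-11907620, minus strand) was called higher with the smallest adjusted p. Sdha (chr13:74350211-74350410, minus strand) had a level that was alike in all groups.
Cox6a1: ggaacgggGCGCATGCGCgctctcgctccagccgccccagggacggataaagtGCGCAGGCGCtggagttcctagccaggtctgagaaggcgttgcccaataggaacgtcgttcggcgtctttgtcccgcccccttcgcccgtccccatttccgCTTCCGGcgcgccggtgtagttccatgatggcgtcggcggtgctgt
Sdhd: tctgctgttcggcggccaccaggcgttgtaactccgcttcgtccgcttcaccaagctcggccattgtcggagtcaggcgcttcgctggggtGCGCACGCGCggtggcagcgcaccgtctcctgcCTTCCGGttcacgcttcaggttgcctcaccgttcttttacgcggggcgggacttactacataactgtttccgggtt
Ndufs6: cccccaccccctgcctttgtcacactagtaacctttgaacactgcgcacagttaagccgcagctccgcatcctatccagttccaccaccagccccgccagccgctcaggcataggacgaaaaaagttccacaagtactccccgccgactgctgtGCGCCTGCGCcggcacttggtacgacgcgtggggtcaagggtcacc
Ndufa4: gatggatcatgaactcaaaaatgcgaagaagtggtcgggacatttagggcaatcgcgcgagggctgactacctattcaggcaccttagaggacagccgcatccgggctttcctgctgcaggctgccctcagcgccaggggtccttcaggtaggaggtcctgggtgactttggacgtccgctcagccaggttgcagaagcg
Sdha: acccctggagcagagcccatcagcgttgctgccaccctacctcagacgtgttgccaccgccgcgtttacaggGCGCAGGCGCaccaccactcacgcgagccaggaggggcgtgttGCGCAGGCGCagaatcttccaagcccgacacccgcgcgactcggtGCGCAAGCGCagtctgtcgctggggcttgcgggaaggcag

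The Sdha stretch held 3 NRF1 matches and that of Cox6a1 held 2 with an ETS match, while Ndufa4 held none of the 4 motifs. Over the 72 member promoters, 18 (25%) held the NRF1 motif, against 6.6% of 17492 promoters. The ETS motif was in 17 (23.6%, against 11.9%), the YY1 motif in 7 (9.72%, against 1.94%) and the ERR motif in 4 (5.56%, against 1.34%). Of the 38 member promoters whose genes were called higher in DMBA/TPA epidermis, 14 held the ETS motif and 10 the NRF1 motif, and of the other 34, 3 and 8 did. The YY1 motif was in 4 of the 38 and 3 of the 34, and the ERR motif in 3 and 1. The same split was not made over all genes. The median log2 fold change in DMBA/TPA was 0.564 over members with the ETS motif and 0.305 over those without it, and 0.529 and 0.407 for the NRF1 motif. For the YY1 motif the medians were 0.459 and 0.417, and for the ERR motif 0.538 and 0.438. These are matches of letters in a fixed window and describe no binding.

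Gene counts per library ranged from 26300400 to 36002886. All 7 basal and 6 suprabasal keratinocyte markers were detected, summing to 17420 to 33870 and 12400 to 20890 counts per 1e6 (CPM) in the libraries. Between DMBA/TPA and its acetone group they did not move alike: of the basal ones Krt14 rose by 2.27 on the log2 scale and Krt15, Col17a1 and Trp63 fell (-1.73, -0.68 and -0.65), and of the suprabasal ones Krt1 rose by 0.94 and Dsg1a fell (-1.01). The DMBA/TPA libraries stood apart from each other more than other pairs did (chi-square over degrees of freedom 65.3, against 11 to 32.1 in the other groups), and 9.82% and 16.4% of their rows were reads not aligned, against 3.8% to 7.47% elsewhere. Values for members are therefore given in each library. All CPM values use library sizes scaled by TMM, and in bulk tissue fewer cells of a type and less RNA per cell cannot be told apart.

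Summed over the 89 members, expression was lowest in the Control DMBA TPA group and highest in the DMBA/TPA group. The sum was 4273 and 4908 CPM in the Control DMBA libraries, 5275 and 4932 CPM in DMBA, 4019 and 3993 CPM in Control DMBA TPA and 5548 and 6442 CPM in DMBA/TPA. The DMBA/TPA libraries lay above all 6 others, and the Control DMBA TPA libraries below all 6 others. The mean of the DMBA/TPA libraries was 49.6% above Control DMBA TPA, but 30.6% above Control DMBA, so the choice of acetone group set a large part of the difference. By group means, 72 of 89 members were highest in DMBA/TPA and 66 of 89 were lowest in Control DMBA TPA. The 2 libraries of a group differed mostly in one direction in 3 groups: DMBA/TPA 2 exceeded DMBA/TPA 1 in 61 of 89 members, Control DMBA 2 exceeded Control DMBA 1 in 76, and DMBA 2 exceeded DMBA 1 in 15. In Control DMBA TPA library 2 was the higher in 39 of 89.

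**Figure D1:**
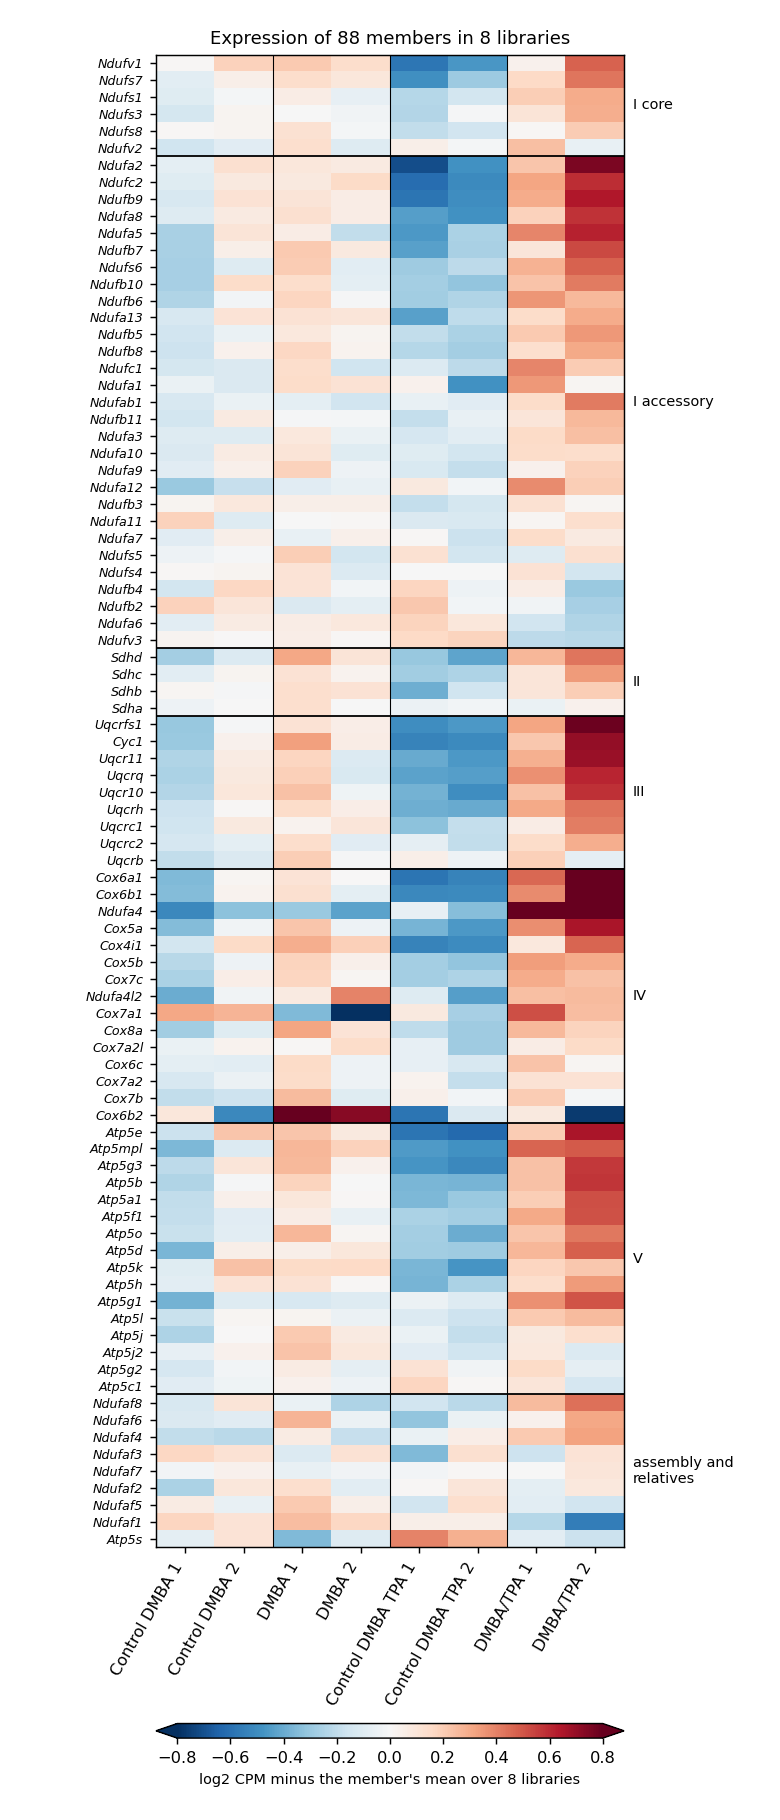
Colour shows the log2 CPM of 88 of the 89 members (rows, grouped by complex) in each of the 8 libraries (columns), minus that member's mean over the libraries; the scale ends at 0.8 either way. Most rows of complexes I to V are blue in the Control DMBA TPA libraries and red in the DMBA/TPA libraries, while the assembly factors at the bottom show no shared pattern.

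**Figure D2:**
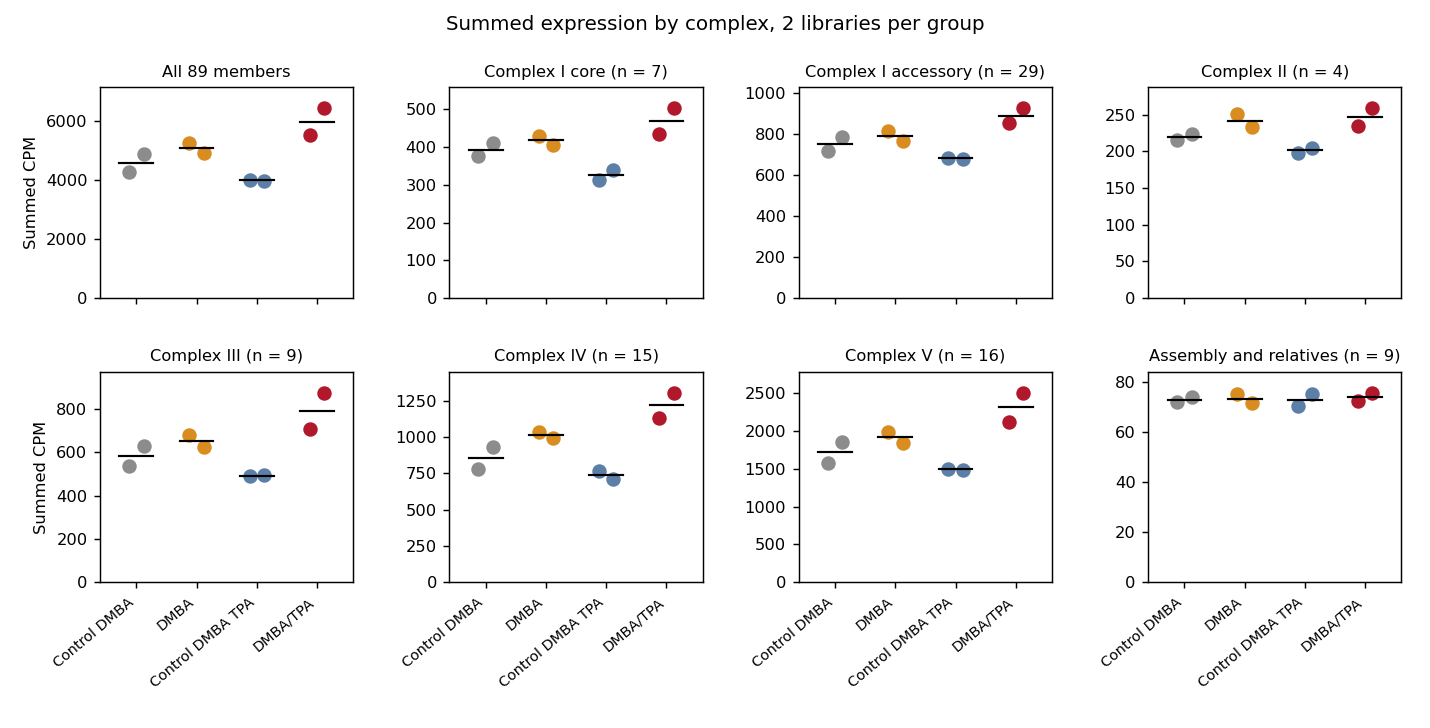
Points are summed CPM per library (vertical axis, starting at 0) for all members and for each complex, and black lines are the means of the 2 libraries in each of the 4 groups. The DMBA/TPA libraries lie above the Control DMBA TPA libraries in all panels but the one of assembly factors and relatives.

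Expression per length differed widely between members. As the mean CPM per kilobase of exon over the 4 groups, Atp5a1 of the ATP synthase head stood at 145, Ndufa4l2 and Cox6b1 at 134 each, Cox4i1 at 129, Cox6a1 at 124 and Atp5b at 123. At the other end were Cox6b2 at 2.18, the assembly factor Ndufaf2 at 1.12 and Cox7a1 at 0.641. Most assembly factors were in the lower ranks, and 5 of the 8 lowest members belonged to that class.

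DMBA/TPA epidermis was compared with Control DMBA TPA, its own acetone group, to ask how the respiratory chain genes stood after repeated TPA. Of the 89 members, 51 rose, 2 fell and 36 were not called (edgeR quasi-likelihood test, adjusted p under 0.05 over all 19450 genes tested). In the same comparison 40.7% of all genes tested were called, 22.4% higher and 18.3% lower, against 59.6% of members. These shares were not matched for expression level, and genes with more reads have smaller errors. The median log2 fold change was 0.474 over members and -0.003 over all genes, so the members' changes were modest in size but mostly of one sign. Both DMBA/TPA libraries lay above both Control DMBA TPA libraries for 68 of 89 members (76.4%, against 37.6% of all genes). They lay below both for 5 (5.62%, against 37.3% of all genes). Complex III had the highest median and assembly factors the lowest. Without Control DMBA TPA 1 the count of higher members dropped from 51 to 28, and without Control DMBA TPA 2 to 32.

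**Figure D3:**
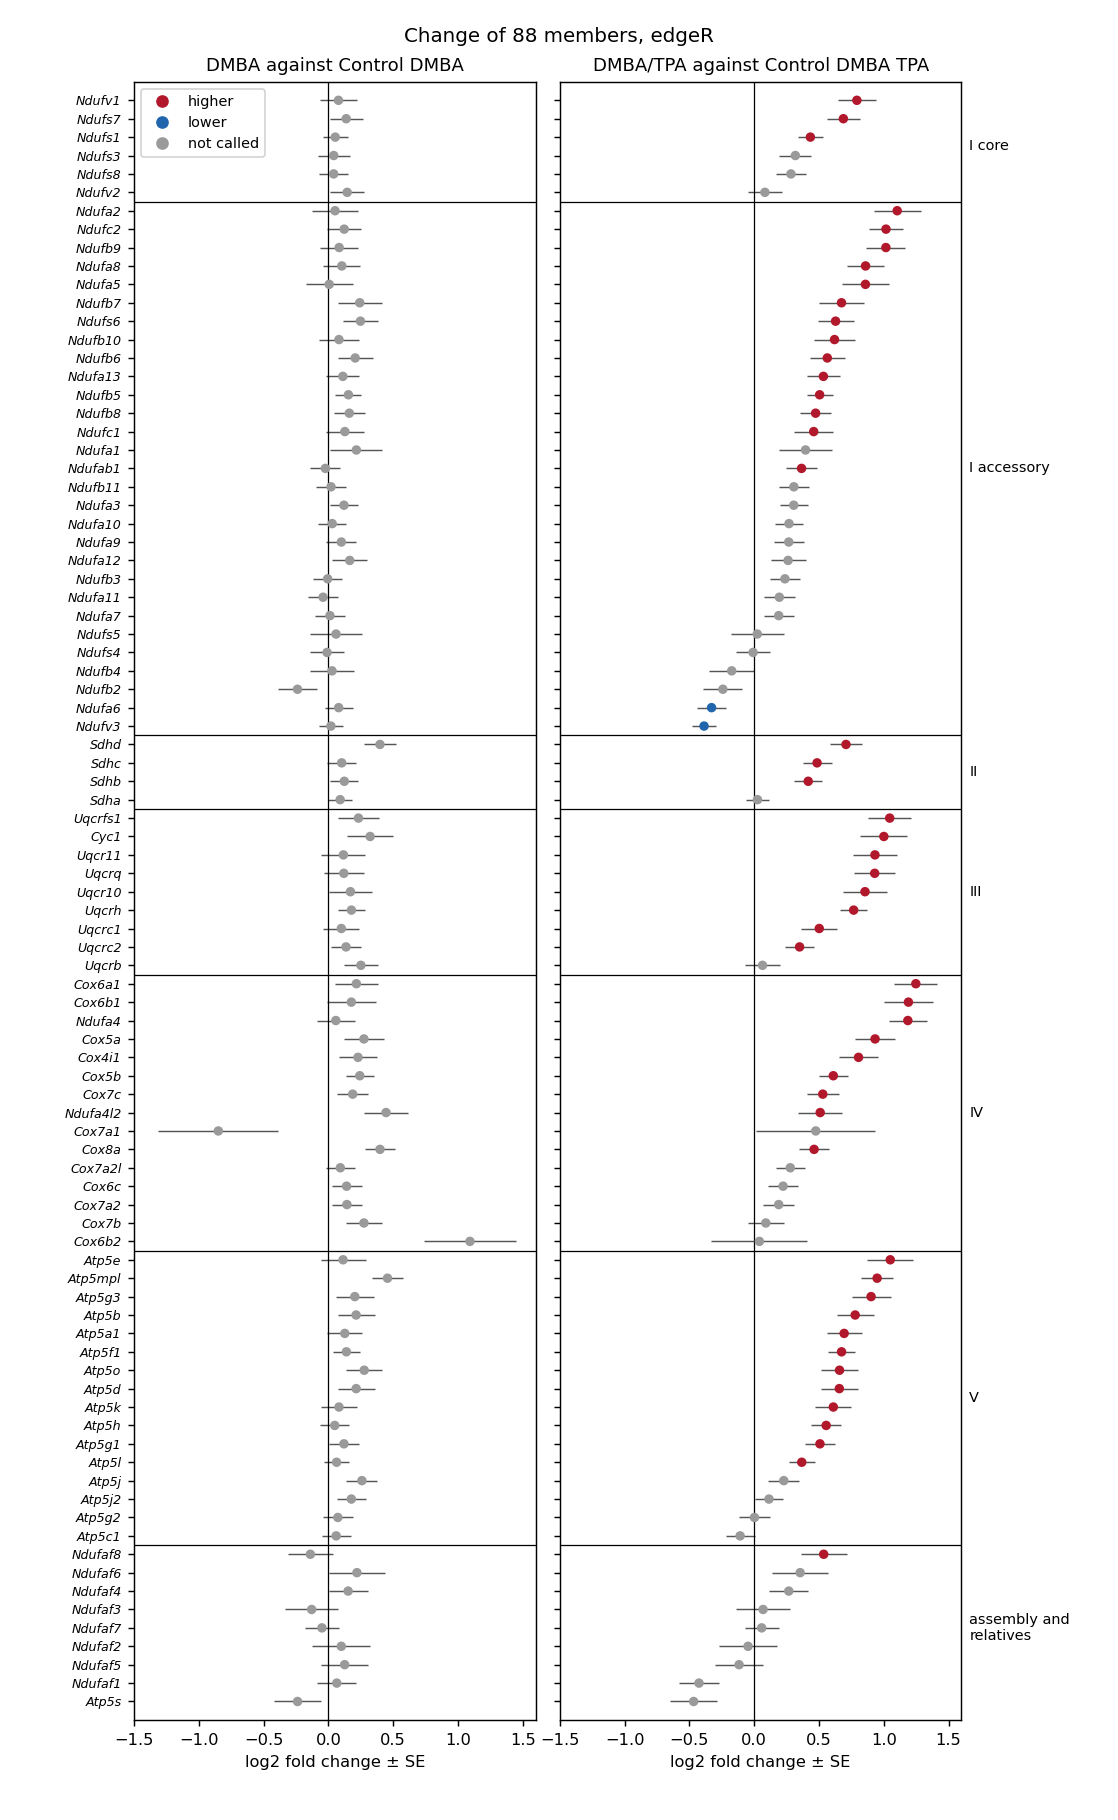
Points are log2 fold changes of 88 of the 89 members with their SE as bars, DMBA against Control DMBA on the left and DMBA/TPA against Control DMBA TPA on the right, with red for called higher, blue for called lower and grey for not called. On the right 50 points are red and 2 blue, and on the left none is called.

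Of the 7 nuclear core subunits of complex I, 4 rose (median log2 fold change 0.434), among them Ndufv1, Ndufs7 and Ndufs1. Ndufv1, which carries the flavin that accepts electrons from NADH, was at 55.7 and 60.2 CPM in the acetone group and at 85.3 and 116 CPM in DMBA/TPA. Its log2 fold change was 0.79 ± 0.15 (SE; adjusted p = 0.0048 by edgeR). In Control DMBA and DMBA libraries Ndufv1 was at 83.7, 94.7, 96.4 and 91.7 CPM, so that the lower DMBA/TPA library overlapped that range. Ndufs7, which lies next to the ubiquinone site, went from 27.1 and 31.1 CPM to 42.6 and 51.2 CPM (0.69 ± 0.13). Ndufs1, the large iron-sulphur subunit, went from 76.2 and 80.9 CPM to 103 and 109.7 CPM (0.43 ± 0.10). In each of these the treated libraries lay above their acetone libraries. Ndufv2, which carries an iron-sulphur cluster beside the flavin, was not called, with 39.3 and 37.6 CPM in acetone and 45.0 and 36.5 CPM in treated libraries.

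Of the 29 accessory subunits of complex I, which surround and stabilise the core, 14 rose and 2 fell (median 0.366). The largest changes were in Ndufa2, Ndufc2, Ndufb9 and Ndufa8. Ndufc2, of the membrane arm, was at 15.3 and 16.4 CPM in the acetone group and at 29.1 and 35.2 CPM in DMBA/TPA, and its log2 fold change was 1.02 ± 0.13 (edgeR adjusted p = 0.0014). Ndufb9, also of the membrane arm, was at 14.7 and 15.6 CPM against 27.0 and 34.3 CPM (1.02 ± 0.15). Ndufa2, of the arm that oxidises NADH, was at 15.8 and 18.5 CPM against 30.2 and 43.6 CPM (1.10 ± 0.18). Each had its 2 lowest values of all 8 libraries in Control DMBA TPA and its 2 highest in DMBA/TPA. The members that fell were Ndufv3 and Ndufa6. Ndufv3, a small subunit next to the flavin site, was at 35.8 and 36.2 CPM in the acetone group and at 27.6 and 27.4 CPM in DMBA/TPA (log2 fold change -0.39 ± 0.09, edgeR adjusted p = 0.014). Ndufa6, which binds the acyl carrier protein Ndufab1, was at 29.1 and 27.4 CPM against 23.2 and 21.8 CPM (-0.33 ± 0.11, edgeR adjusted p = 0.043). Both had their lowest values of all libraries in DMBA/TPA. The Ndufa6 call was lost in 13 of 16 alternative settings, DESeq2 and limma voom among them, and that of Ndufv3 in 4 of 16. Ndufab1 itself rose by 0.37 ± 0.12, a call lost in 10 of 16 settings. Ndufs4, whose loss in mice gives a mitochondrial encephalopathy, was alike in both groups, at 23.9 and 24.0 CPM against 26.0 and 21.7 CPM.

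The 4 subunits of complex II, which oxidises succinate and is a TCA cycle enzyme as well, split between the membrane anchors with the iron-sulphur protein and the flavoprotein. Sdhd, an anchor, was at 23.5 and 21.6 CPM in the acetone group and at 34.7 and 38.9 CPM in DMBA/TPA (log2 fold change 0.71 ± 0.13, edgeR adjusted p = 0.0042). Sdhc, the other anchor, was at 41.7 and 42.6 CPM against 53.9 and 64.0 CPM (0.49 ± 0.11). Sdhb, the iron-sulphur subunit, was at 34.5 and 40.6 CPM against 48.5 and 51.8 CPM (0.42 ± 0.11). All 3 rose, with no overlap between the groups. Sdha, the catalytic flavoprotein, was at 98.2 and 100.1 CPM against 97.9 and 104 CPM, a log2 fold change of 0.03 ± 0.09 (edgeR adjusted p = 0.84). Its 8 values spanned 97.9 to 111 CPM, the highest being DMBA 1.

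In complex III, 8 of 9 members rose, with a median of 0.855. Uqcrfs1, the Rieske iron-sulphur protein, was at 42.4 and 43.6 CPM in the acetone group and at 74.4 and 103 CPM in DMBA/TPA (1.05 ± 0.16, edgeR adjusted p = 0.0026). Cyc1, which carries the haem that hands electrons to cytochrome c, was at 50.2 and 51.1 CPM against 84.3 and 118 CPM (1.00 ± 0.18). Uqcrh, the hinge protein at the cytochrome c docking face, was at 51.3 and 51.0 CPM against 83.2 and 91.0 CPM (0.77 ± 0.10). In Cyc1, DMBA 1 at 91.1 CPM exceeded DMBA/TPA 1, whereas in Uqcrfs1 and Uqcrh the DMBA/TPA libraries were above all others. The small subunits Uqcrq, Uqcr10 and Uqcr11 rose by 0.86 to 0.93, and the core proteins Uqcrc1 and Uqcrc2, relatives of processing peptidases, by 0.50 and 0.35. The Uqcrc2 call was lost in 11 of 16 alternative settings and that of Uqcrc1 in 4. Uqcrb, a small subunit near the ubiquinone site, was not called, at 26.0 and 24.4 CPM against 28.7 and 24.0 CPM.

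In complex IV, 9 of 15 members rose, with a median of 0.510, and this complex held the 3 largest changes of all members. Cox6a1 was at 55.1 and 56.9 CPM in the acetone group and at 114 and 152 CPM in DMBA/TPA, a log2 fold change of 1.25 ± 0.17 (edgeR adjusted p = 0.0015). Cox6b1, which joins the monomers of the complex, was at 62.8 and 63.0 CPM against 117 and 170.1 CPM (1.19 ± 0.19). In Control DMBA and DMBA both stood between: Cox6a1 at 64.5, 83.4, 89.1 and 82.5 CPM, and Cox6b1 at 70.5, 91.7, 98.2 and 85.2 CPM. Cox5a, a matrix-facing subunit, was at 31.9 and 30.1 CPM against 53.6 and 64.9 CPM (0.93 ± 0.16). Cox4i1, the ubiquitous form of the subunit through which ATP inhibits the enzyme, was at 135 and 138 CPM against 207 and 269 CPM (0.81 ± 0.15). Cox4i1 was at 239 and 222 CPM in DMBA, so its DMBA/TPA values overlapped those of DMBA.

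Ndufa4, once counted with complex I and now placed in complex IV, was the member with the smallest adjusted p. It was at 37.2 and 42.5 CPM in Control DMBA, 43.3 and 39.7 CPM in DMBA, 51.0 and 42.1 CPM in Control DMBA TPA and 94.8 and 117 CPM in DMBA/TPA. The DMBA/TPA libraries stood far above all 6 others, which lay close together, and Ndufa4 was not low in Control DMBA TPA as other strongly changed members were. The log2 fold change was 1.19 ± 0.15 (edgeR adjusted p = 0.0011). Its paralogue Ndufa4l2, known to be induced by hypoxia, was at 109.7 and 142 CPM in Control DMBA, 152 and 190.3 CPM in DMBA, 134 and 106 CPM in Control DMBA TPA and 170.5 and 172 CPM in DMBA/TPA. It rose by 0.51 ± 0.17 (edgeR adjusted p = 0.042), with its highest value in DMBA 2, and the call was lost in 8 of 16 alternative settings, total counts and 5 single-library omissions among them.

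Isoforms of complex IV known from other tissues stayed low. Cox7a1, the heart and muscle form, was between 0.190 and 0.472 CPM in all libraries, and its ubiquitous partner Cox7a2 between 30.5 and 38.5 CPM, and neither was called. Cox6b2, the testis form, was at 2.35 and 1.54 CPM in Control DMBA, 4.65 and 3.64 CPM in DMBA, 1.46 and 2.03 CPM in Control DMBA TPA and 2.32 and 1.29 CPM in DMBA/TPA. Its 2 DMBA values were the highest, with a log2 fold change against Control DMBA of 1.09 ± 0.35 that did not pass the test (edgeR adjusted p = 0.33). Among the forms below the count minimum, Cox6a2 and Cox8b of muscle had 3 and 7 counts over the 8 libraries, and the testis forms Cox7b2 and Cox8c had 0, for which 3 counts over all libraries set a limit of 0.0119 CPM from counting error alone. Cox8a, the ubiquitous form, rose by 0.46 ± 0.11 and Cox7a2l, a supercomplex factor, was not called (0.28 ± 0.11, edgeR adjusted p = 0.074). Cox7b was at 35.1 and 33.5 CPM against 39.3 and 33.8 CPM and was not called.

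In complex V, 12 of 16 members rose, with a median of 0.634. Atp5b, the catalytic subunit of the head, was at 396 and 395 CPM in the acetone group and at 599 and 759 CPM in DMBA/TPA (0.78 ± 0.14, edgeR adjusted p = 0.0046). Atp5a1, the other large head subunit, was at 349 and 363 CPM against 513 and 639 CPM (0.69 ± 0.13). Both were highest in the DMBA/TPA libraries, with DMBA 1 next for Atp5b at 577 CPM and for Atp5a1 at 476 CPM. Atp5mpl, a small membrane proteolipid, was at 16.6 and 16.2 CPM against 31.5 and 31.9 CPM (0.95 ± 0.12, edgeR adjusted p = 0.0013). Atp5e, of the central stalk, was at 38.4 and 37.4 CPM against 66.4 and 90.5 CPM (1.05 ± 0.18). Atp5f1, of the peripheral stalk, was at 76.2 and 75.1 CPM against 112 and 129 CPM (0.67 ± 0.10). The 3 genes for the same mature c-ring protein did not move alike: Atp5g3 rose by 0.90 ± 0.15 and Atp5g1 by 0.51 ± 0.12, while Atp5g2 was at 57.5 and 52.2 CPM against 59.2 and 50.6 CPM, with a log2 fold change of 0.00 ± 0.12. Atp5c1, the rotating shaft of the central stalk, was not called either, at 77.9 and 69.6 CPM against 73.8 and 62.9 CPM.

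Of the 9 assembly factors and relatives, Ndufaf8, an assembly factor of complex I, was the single member called. It was at 6.69 and 6.40 CPM in the acetone group and at 8.89 and 10.1 CPM in DMBA/TPA (0.54 ± 0.18, edgeR adjusted p = 0.041). That call was lost in 10 of 16 alternative settings, the compared groups only and no low-count filter among them. Ndufaf1, needed for the membrane arm of complex I, was at 13.2 CPM in both acetone libraries and at 10.9 and 8.73 CPM in DMBA/TPA, with a log2 fold change of -0.43 ± 0.15 (edgeR adjusted p = 0.054). Atp5s, a relative outside the ATP synthase core, was at 7.95 and 7.37 CPM against 5.70 and 5.37 CPM (-0.47 ± 0.18, edgeR adjusted p = 0.073). The sum over this class differed by 1.68% between the groups, against 60.5% for complex III, 64.1% for complex IV, 55% for complex V, 22.6% for complex II, 43.6% for the core and 30.3% for the accessory subunits of complex I.

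The acetone groups themselves were compared next, since they set the base of each contrast. In Control DMBA TPA against Control DMBA, 2 of 89 members fell and none rose, against 6.25% of all genes called (1.97% higher and 4.28% lower), and 16 members had an unadjusted p under 0.05. DESeq2 and limma voom also called 0 members higher, and 6 and 0 lower. The members that fell were Ndufv1, by 0.62 on the log2 scale (edgeR adjusted p = 0.046), and Ndufc2, by 0.55 (edgeR adjusted p = 0.049). Neither was called when any 1 library of the acetone or DMBA groups was left out, and neither with RLE size factors or limma voom. The median over members was -0.137, against -0.022 over all genes. Both Control DMBA TPA libraries lay below both Control DMBA libraries for 47 of 89 members (52.8%, against 31.4% of all genes). Regimen, harvest day and acetone group cannot be told apart in these libraries.

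With Control DMBA as the control of DMBA/TPA instead, 20 members were called higher and 1, Ndufaf1, lower, against 11.3% and 8.10% of all genes, and the median was 0.300. Of the 51 members called higher against their own acetone group, 19 were called higher against both groups. They included Ndufa4 (1.41 ± 0.15), Cox6a1 (0.85 ± 0.17), Cox6b1 (0.82 ± 0.19), Uqcrfs1 (0.72 ± 0.16), Atp5mpl (0.71 ± 0.12), Cox5a (0.70 ± 0.15), Sdhd (0.54 ± 0.13) and Atp5b (0.53 ± 0.14). Of the 4 core subunits of complex I that rose, none was called against Control DMBA. Of the 20, 3 changed more against Control DMBA than against their own acetone group: Ndufa4, Atp5g1 (0.67 against 0.51) and Ndufa12, an accessory subunit of complex I (0.53 against 0.26).

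In DMBA epidermis on day 10, none of the 89 members was called against Control DMBA by edgeR, and none by DESeq2 or limma voom, against 0.267% of all genes (0.190% higher and 0.0771% lower). At an unadjusted p under 0.05 there were 5 members. The median log2 fold change was 0.119 over members and -0.006 over all genes, and 79 of 89 members had a value above 0. Both DMBA libraries lay above both Control DMBA libraries for 33 members (37.1%, against 19.1% of all genes) and below both for 4 (against 20.2%). The smallest adjusted p was that of Atp5mpl, at 17.7 and 21.1 CPM in Control DMBA and 27.4 and 25.9 CPM in DMBA (0.46 ± 0.12, edgeR adjusted p = 0.21). Next came Cox8a, at 42.5 and 48.0 CPM against 63.9 and 55.3 CPM (0.40 ± 0.11, edgeR adjusted p = 0.24). Sdhd was at 23.9 and 26.9 CPM against 35.9 and 31.0 CPM (0.40 ± 0.13, edgeR adjusted p = 0.31). These 3 had no overlap between groups, but the test over all genes did not call them. Against Control DMBA TPA, by contrast, 20 members were called higher in DMBA, and 0 lower, with a median of 0.285, against 9.59% and 6.92% of all genes. The median against Control DMBA was 0.044 when Control DMBA 1 was left out, 0.197 when Control DMBA 2 was, 0.058 when DMBA 1 was and 0.18 when DMBA 2 was.

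A contrast of the 2 regimens, in which the response to DMBA was subtracted from the response to DMBA/TPA on the log2 scale, was called for 10 members, all higher, against 12.6% of all genes (8.70% higher and 3.95% lower). DESeq2 and limma voom also called none lower, and 39 members had an unadjusted p under 0.05. The 10 were Ndufa4, Ndufc2, Ndufb9, Cox6a1, Ndufa2, Uqcrh, Atp5e, Cox6b1, Ndufa8 and Uqcrq, which is 11.2% of members and near the share over all genes. The median difference was 0.333 over members and 0.004 over all genes. The largest was in Ndufa4, at 1.13 ± 0.20 (edgeR adjusted p = 0.015), and the smallest of the 10 in Uqcrh, at 0.59 ± 0.15 (edgeR adjusted p = 0.037). Ndufa8, which faces the intermembrane space, was at 28.3 and 32.0 CPM in Control DMBA, 33.1 and 31.6 CPM in DMBA, 22.3 and 21.7 CPM in Control DMBA TPA and 34.5 and 45.4 CPM in DMBA/TPA, a difference of 0.76 ± 0.20. Uqcrq, at 36.0 and 45.4 CPM, 49.0 and 39.4 CPM, 31.8 and 31.6 CPM, and 55.3 and 65.6 CPM in the same order, gave 0.81 ± 0.22. In 9 of the 10 the Control DMBA TPA libraries were the lowest of the 8, Ndufa4 being the exception. The count rested on single libraries: it was 0 without DMBA 2 or Control DMBA TPA 2, 1 (Ndufa4) without Control DMBA 2, DMBA 1 or Control DMBA TPA 1, 5 without DMBA/TPA 2 and 28 without DMBA/TPA 1. The count was 6 with the replicate numbers as a block, 6 with limma voom, 18 with DESeq2 and 22 with no low-count filter.

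**Figure D4:**
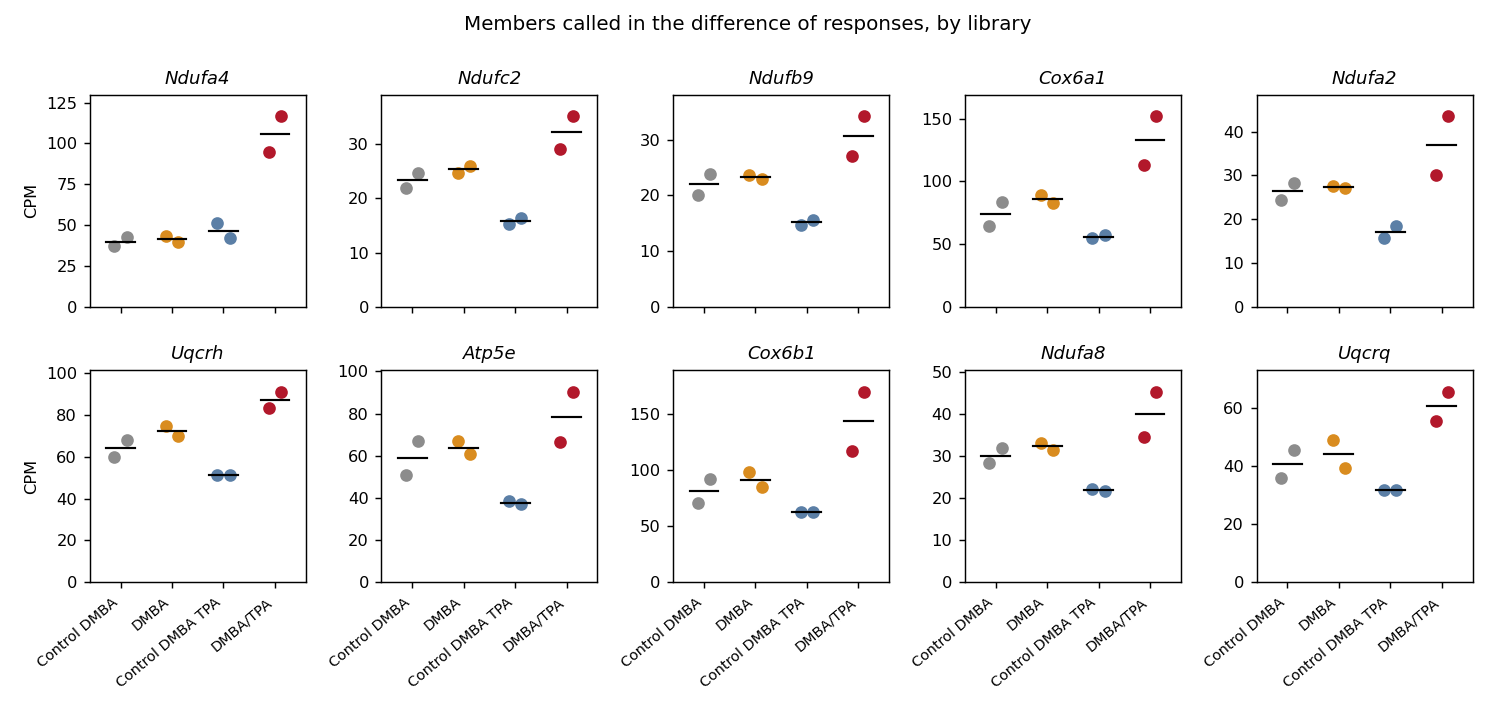
Points are CPM per library (vertical axis, starting at 0) and black lines the means of 2 libraries in each of the 4 groups, for the 10 members whose response differed between the regimens. DMBA and Control DMBA lie close together in each panel, and the DMBA/TPA libraries lie above the Control DMBA TPA libraries.

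The subunits encoded in mitochondrial DNA did not follow the nuclear ones in DMBA/TPA epidermis. Of 12 tested, 3 fell and 9 were not called (median log2 fold change -0.650): mt-Nd2, mt-Nd1 and mt-Nd4, all of the membrane arm of complex I. The share called was 25%, against 40.7% of all genes, and 18.3% of all genes were lower. Of the 12 values, 2 were above 0. mt-Nd2 was at 599 and 582 CPM in the acetone group and at 344 and 169 CPM in DMBA/TPA (-1.20 ± 0.28, edgeR adjusted p = 0.012). mt-Nd4 was at 559 and 505 CPM against 372 and 179 CPM (-0.95 ± 0.29, edgeR adjusted p = 0.031). DMBA/TPA 2 was the lowest library for both, and the list's sum was 7785 and 7901 CPM against 6671 and 3927 CPM. In that library the nuclear members had their largest sum. With mitochondrially encoded genes left out of the total, the members took 0.411% and 0.420% of counts in the acetone libraries and 0.546% and 0.591% in the treated ones. Of all gene counts they took 0.403% and 0.412%, and 0.536% and 0.587%.

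Genes that serve the chain were described from fixed lists in the same comparison. Cycs, the somatic cytochrome c that links complexes III and IV, was at 15.9 and 17.9 CPM in the acetone group and at 28.4 and 37.8 CPM in DMBA/TPA (0.97 ± 0.17, edgeR adjusted p = 0.0038). Of 24 import genes 12 rose and 2 fell (median 0.454), among them Timm13, a chaperone of the intermembrane space, by 1.16 ± 0.16, and Tomm22, a receptor of the outer membrane, by 0.99 ± 0.17. Of 77 mitochondrial ribosomal proteins 33 rose and 1 fell (median 0.332), with Mrpl12 at 1.22 ± 0.20. Of 8 carriers and uncouplers 4 rose, including the phosphate carrier Slc25a3 by 0.72 ± 0.13 and the ADP/ATP carrier Slc25a5 by 0.74 ± 0.13. Of 11 supercomplex and cristae organisers 5 rose, including the prohibitins Phb and Phb2 by 0.86 ± 0.16 and 0.74 ± 0.14. Of 82 cytosolic ribosomal proteins, which have no part in respiration, 39 rose and 1 fell (median 0.380). The share called was 58.3% for import, 44.2% for mitochondrial ribosomal proteins, 50% for carriers, 45.5% for organisers and 48.8% for cytosolic ribosomal proteins. Over all genes it was 40.7%, with 22.4% higher and 18.3% lower.

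Other steps moved less evenly. Of 14 TCA cycle genes 5 rose and 1 fell (median 0.254), led by the malate dehydrogenase Mdh2 at 0.85 ± 0.15. Of 12 genes of pyruvate entry 2 rose and 3 fell (median -0.004): the pyruvate carrier subunit Mpc1 was at 19.6 and 18.9 CPM in the acetone group and at 13.6 and 9.05 CPM in DMBA/TPA (-0.77 ± 0.19, edgeR adjusted p = 0.014), and Pdp2, a phosphatase that activates pyruvate dehydrogenase, was at 6.38 and 7.20 CPM against 12.7 and 16.1 CPM (1.08 ± 0.19). Of 10 genes of ubiquinone synthesis 2 rose and 1 fell, the last being Coq8a, at 37.3 and 34.2 CPM against 21.3 and 17.6 CPM (-0.88 ± 0.17). Of 7 other donors of electrons to ubiquinone 2 rose and 1 fell, the proline dehydrogenase Prodh at -0.93 ± 0.18. Of 8 genes that remove superoxide and hydrogen peroxide 3 rose (Prdx3, Prdx5 and Txn2) and 2 fell. The log2 fold changes of these 8 ran from -1.22 to 1.06 (median 0.186). Among assembly factors outside the name rule, 1 of 4 for complex II rose and 3 were not called (median 0.146). The one that rose was Sdhaf1, at 4.36 and 4.34 CPM against 9.36 and 11.1 CPM (1.23 ± 0.19). Of 23 complex IV assembly genes 8 rose and 1 fell. Of 7 for complex III 2 rose and 1 fell, and of 8 for complex I 1 rose and 1 fell. Of 4 genes for assembly or inhibition of complex V, the inhibitor gene Atpif1 among them, 1 rose. The share called was 42.9% for the TCA cycle, 41.7% for pyruvate entry, 30% for ubiquinone synthesis and 42.9% for other donors. It was 62.5% for removal of superoxide and hydrogen peroxide and 25% to 42.9% for the assembly lists, against 40.7% over all genes.

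Of 15 regulators of mitochondrial biogenesis 5 rose and 10 were not called (median 0.048), a share called of 33.3%, below the 40.7% over all genes. Esrra, the oestrogen-related receptor alpha, was at 46.1 and 50.4 CPM in the acetone group and at 77.7 and 112 CPM in DMBA/TPA (0.97 ± 0.18, edgeR adjusted p = 0.0050). In Control DMBA and DMBA it was at 63.5, 81.7, 84.5 and 86.7 CPM, a range that held the lower DMBA/TPA library. Pprc1 and Ppargc1b, coactivators of the PGC-1 family, rose by 0.74 ± 0.18 and 0.70 ± 0.18, the helicase of mitochondrial DNA Twnk by 0.44 ± 0.10 and Myc by 0.60 ± 0.16. Nrf1 was at 53.2 and 52.6 CPM against 58.0 and 50.4 CPM and was not called, and neither was Tfam, which packages and transcribes mitochondrial DNA (0.10 ± 0.11). Gabpa was at 61.0 and 60.4 CPM against 52.8 and 49.5 CPM (-0.25 ± 0.09, edgeR adjusted p = 0.061). Ppargc1a was below 4 CPM in all 8 libraries.

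**Figure D5:**
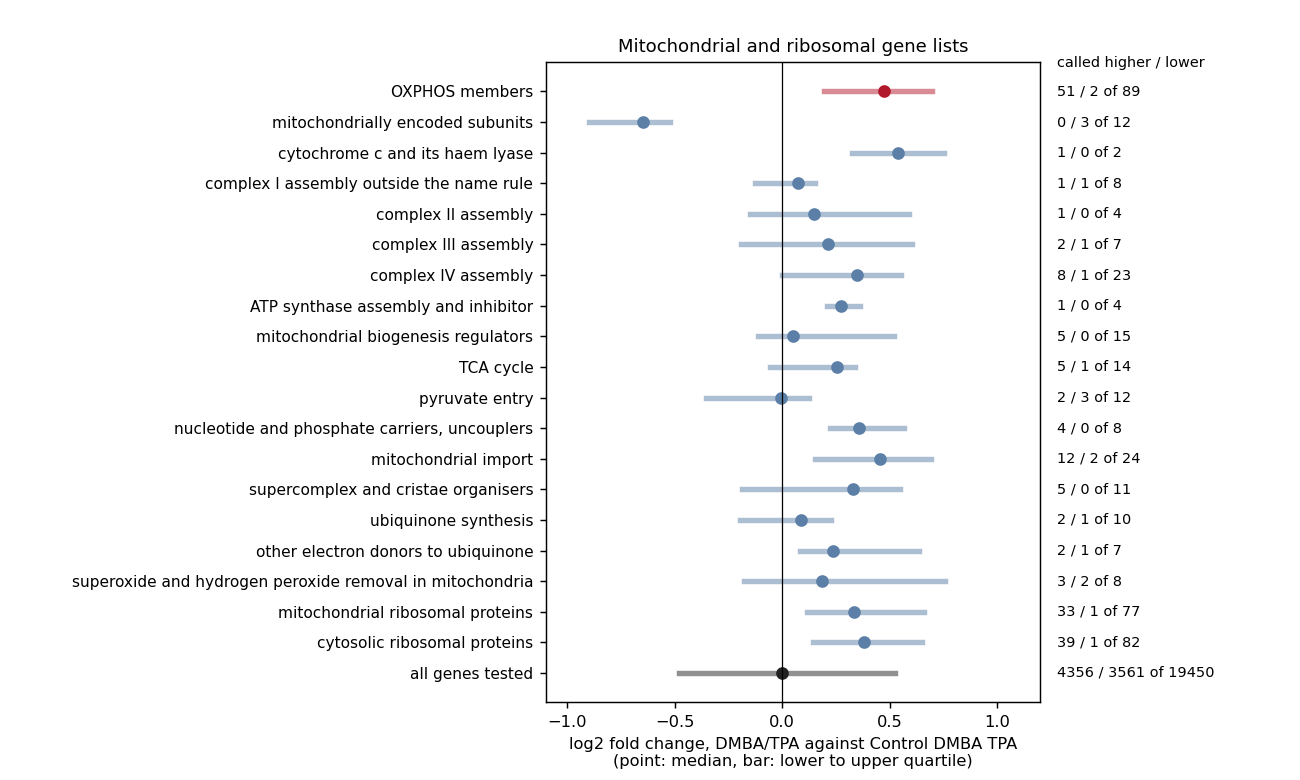
Points are median log2 fold changes and bars the lower to upper quartile of each gene list in DMBA/TPA against Control DMBA TPA, with counts of genes called higher and lower at the right. The nuclear members sit at 0.474, near the import and ribosomal lists, while the mitochondrially encoded subunits lie below 0.

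Markers of cell types also moved between these groups, where 40.7% of all genes were called. All 6 keratinocyte genes of hyperplasia, such as Krt6a and Krt16, rose in DMBA/TPA, their sum going from 950.2 and 1398 CPM to 10510 and 28210 CPM. Of 8 fibroblast genes 7 rose, and their sum was 36.5 and 65.6 CPM in Control DMBA TPA, 1177 and 3294 CPM in DMBA/TPA, 1022 and 477 CPM in Control DMBA and 68.3 and 81.5 CPM in DMBA. All 12 hair shaft and sheath genes tested rose, with sums of 5.89 and 14.9 CPM against 3103 and 407 CPM, and 245 and 1213 CPM in Control DMBA and 383 and 94.2 CPM in DMBA. All 6 T cell genes fell, with a sum of 102 and 97.3 CPM against 12.0 CPM in both DMBA/TPA libraries. Of 7 endothelial genes 6 rose and of 5 melanocyte genes 5 rose. For tissues rich in mitochondria, 4 of 12 skeletal muscle genes passed the count filter and the 12 summed to 2.23 to 5.52 CPM in any library. Of those 4, 1 rose and 1 fell in DMBA/TPA against its acetone group. Of 8 adipocyte genes 4 were tested and Fabp4, which endothelial cells express too, rose, from 0.0697 and 0 CPM to 46.3 and 231 CPM. The list's sum was 9.97 and 13.6 CPM in the acetone group and 58.9 and 239 CPM in DMBA/TPA, where Fabp4 made up most of it. The brown adipocyte list summed to 30.7 to 84.3 CPM and none of its 5 tested genes was called by edgeR. The defining genes Mb of muscle, Ucp1 of brown fat and Adipoq of fat were at 0.197 CPM or below in all libraries. The part of these cell types in the members' values was not tested.

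The members lie on 19 chromosomes, and those called higher on 18. Of the 89, 43 had no 75-base stretch of exon in common with another gene and no exon overlap, and 24 of them rose and 2 fell in DMBA/TPA (median 0.475). Of the other 46, 27 rose (median 0.454). These 46 range from Ndufa3, with an exon overlap of 4 bases, to Ndufaf2, with 63.2% of its 75-base stretches shared. An effect of shared or overlapping sequence on the counts was not tested. Across the 89 members, Spearman's rho of the DMBA/TPA log2 fold change was 0.54 with the mean log2 CPM per kilobase, 0.38 with the mean log2 CPM and -0.26 with exon length. The points share libraries, and members with more reads have smaller errors, so these values only describe the set.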

How the data were processed

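Each library has 1 deposited file of count values, in which the authors give raw reads per Ensembl gene. The value column of DMBA/TPA 1 is headed by a number alone where the others name their sample, and all 8 sheets carry 1 acetone sample's name, so libraries were identified by the sample each file was deposited under. The submitters' processing notes name cutadapt, FastQC, Bowtie2, TopHat2 and mm10; how reads were counted, and on which strand, is not given in the sources used here. The RNA was, per the labels' protocols, depleted of rRNA and the kit keeps strand. Summary rows (reads unassigned or unaligned) were dropped first; reads in no gene were 32.9% to 42.1% of the totals. GENCODE M21 (GRCm38) gave symbols for 55141 of 55487 identifiers (99.4%).

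filterByExpr (count minimum 10, total minimum 15) left 19450 genes. TMM factors were 0.911 to 1.05. One model with a mean per group was fitted to all 8 libraries with edgeR 4.0.16 (R 4.3.3; 4 residual degrees of freedom, biological coefficient of variation 0.165), and contrasts were tested by quasi-likelihood. Genes rose or fell where the Benjamini-Hochberg adjusted p was under 0.05. SE was derived from the fold change and F. The code was tested on simulated data.

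Alternatives were RLE or total-count scaling, no filter, DESeq2 1.42.0, limma voom (3.58.1), a replicate block, the compared groups only, the other acetone group as control, and each library left out. Members, lists and tests were chosen with earlier results of these data known. Named by rule were the members with the smallest adjusted p in each complex and contrast, isoform pairs, complex II, Cyc1, and up to 3 genes per list by adjusted p. Other named genes, such as Ndufs4, Ndufv2, Uqcrb, Atp5b, Atp5a1, Atp5g2, Atp5c1, Nrf1 and Tfam, were chosen after their values were seen. The promoters shown, that of Ndufs6 among them, were not chosen by a rule either. One member is counted in all totals but not reported here by itself.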

Additional observations from a re-analysis of the deposited data

Results flagged for a closer look

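For 10 members the response to DMBA/TPA differed from the response to DMBA by a test of the difference itself, the interaction contrast of edgeR with adjusted p under 0.05. On the log2 scale the DMBA/TPA change exceeded the DMBA change by 1.13 in Ndufa4, 1.05 in Ndufa2, 1.03 in Cox6a1, 1.01 in Cox6b1, 0.94 in Atp5e, 0.93 in Ndufb9, 0.90 in Ndufc2, 0.81 in Uqcrq, 0.76 in Ndufa8 and 0.59 in Uqcrh. In all 10 the change in DMBA was between 0.05 and 0.22, and that in DMBA/TPA between 0.77 and 1.25. These are 11.2% of members, near the 12.6% of all genes called in this contrast. The count was 0 without DMBA 2 or Control DMBA TPA 2, and 1 without Control DMBA 2, DMBA 1 or Control DMBA TPA 1.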

How the results depend on the processing

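No count or median over members changed direction under an alternative, and neither did any member called both in the main fit and in the alternative. For members not named by rule, the sign of values that lost their call was checked only with the other acetone group. Of 144 values of named members, 21 changed sign in at least 1 setting, none of them called; with the other acetone group as control, 15 of 89 members changed sign in DMBA (Ndufa4 to -0.17) and 4 in DMBA/TPA. DMBA/TPA against Control DMBA TPA kept 40 to 52 members called higher under all settings but the 3 given in the report, the lowest and highest counts without 1 library being 28 and 52, and 26 members were called in every setting that kept that control. The median of members there was 0.355 with total counts, under which the median of all genes was lower as well, and 0.300 with the other acetone group, where 20 were called higher. Members called lower numbered 4 with total counts, 1 with RLE, no filter, DESeq2, limma voom, the replicate block or the other acetone group, 0 with the compared groups only, and 0 to 3 without 1 library. For DMBA against Control DMBA the other acetone group gave 20 higher and a median of 0.285, and the median without 1 library was 0.044 to 0.197. For the difference of responses, 22 were called higher with no filter, 18 with DESeq2, 6 with limma voom and 6 with the replicate block, and 0 to 28 without 1 library; members called lower were 0 to 1 (Ndufaf1 without DMBA/TPA 1), and the median was 0.230 with total counts and 0.242 to 0.391 without 1 library. Between acetone groups, members called lower were 0 with RLE or limma voom, 4 with total counts, 7 with no filter, 6 with DESeq2, 5 with the compared groups only and 0 to 8 without 1 library, with a median between -0.181 and -0.073. The causes were not tested. Leaving out a library leaves a single sample in its group, which is then assumed to vary like the others. The sample numbers share only a number (correlations of deviations -0.202 and -0.033 in the DMBA and DMBA/TPA contrasts, 2 pairs each), and with the replicate block 51 members were higher in DMBA/TPA and 0 in DMBA.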
